A study of Homo sapiens with 4 samples.

Results

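The E2F family of transcription factors and their DP dimerization partners were examined in SK-N-BE(2) neuroblastoma cells after knockdown of SAPCD2. The members were the 10 genes E2F1 to E2F8, TFDP1 and TFDP2, chosen by name and matched through the GENCODE symbol to the Ensembl identifiers of a count table of 64252 genes. All 10 were found, and all 10 passed the filter on low counts that left 18779 genes for testing. SK-N-BE(2) is an established human neuroblastoma cell line, and SAPCD2 encodes a protein that localizes to the cell cortex and spindle region in dividing cells. Bulk RNA-seq was available for 2 libraries of cells that carried a scramble shRNA (sh-Scb, the control) and 2 libraries of cells that carried an shRNA against SAPCD2 (sh-SAPCD2). Both shRNAs were carried by lentivirus and infected cells were kept by selection with puromycin, controls included. All 4 libraries came from the same line, and the labels did not say whether the libraries of a group came from separate cultures, so every p-value here measures only the spread between these libraries. The labels also did not say which of the study's hairpins against SAPCD2 was used.

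E2F proteins bind DNA at the promoters of genes needed for entry into S phase. E2F1, E2F2 and E2F3 are known as activators and are held in check by the retinoblastoma protein RB1, which lets go of them once it has been phosphorylated by cyclin-dependent kinases. E2F4 and E2F5 act mainly as repressors together with the pocket proteins RBL1 and RBL2, and E2F6 represses through a Polycomb complex without pocket proteins. These E2Fs bind DNA as dimers with a DP protein, encoded by TFDP1 or TFDP2. E2F7 and E2F8, the atypical members, need no DP partner because each carries a pair of DNA-binding domains, and they repress E2F targets late in S phase. Several E2F genes are themselves E2F targets, so that the family partly controls its own transcription. In neuroblastoma with amplified MYCN, to which SK-N-BE(2) belongs, the E2F program is known to be highly active.

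Promoter sequence was read first, since the family controls its own genes. The RefSeq promoter windows (build GRCh38.p14, 250 bases before to 50 bases after a transcription start) held 11 windows of 8 members. E2F5 and E2F8 were the other members. The E2F consensus was searched as TTTCCCGC, TTTGGCGC, TTTCGCGC and TTTGCCGC on both strands, and it was present in the windows of 4 members, namely E2F1, E2F2, E2F3 and TFDP1, against 3.315% of the 35116 windows of the whole table. A further run of letters, TTTCGCGG, was noticed in these windows and counted afterwards. It lay in a window of each of the 3 activators and of no other member, and in 0.416% of all windows. The stretches that hold the matches are shown 5′ to 3′ on the strand of the gene, with capitals for the consensus or TTTCGCGG in either orientation, so that the spacing of the matches in the activators can be compared:
E2F1 (chr20:33686383-33686437, minus strand): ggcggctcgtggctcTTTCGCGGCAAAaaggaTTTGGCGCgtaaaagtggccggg
E2F2 (chr1:23531253-23531305, minus strand): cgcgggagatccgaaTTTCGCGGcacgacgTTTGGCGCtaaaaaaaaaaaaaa
E2F3 (chr6:20401811-20401862, plus strand): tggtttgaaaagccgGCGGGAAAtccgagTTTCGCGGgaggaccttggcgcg
TFDP1 (chr13:113584618-113584655, plus strand): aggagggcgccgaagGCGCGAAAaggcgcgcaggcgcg

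In E2F1 the first run of capitals holds both TTTCGCGG and, overlapping it, TTTGCCGC read on the opposite strand, which were counted as separate matches. The TTTCGCGG letters began at position -37 from the start site in E2F1, at -57 in E2F2 and at -39 in E2F3, where the base before the start is -1. E2F1 and E2F2 also shared TTTGGCGC, at -20 and -42. In E2F3 the matches lay in 1 of its 2 windows, the one of the upstream promoter, and the only consensus match of TFDP1 was at -120. The windows of E2F4, E2F6, E2F7 and TFDP2 held none of these octamers. CCAAT, the box bound by NF-Y, is a short run of letters found in 34.614% of all windows. The E2F7 window held it at 4 positions. It also lay in windows of E2F3 (-249, -187, -151 and -123), E2F1 (-179, -113 and -70) and TFDP2 (-52 and -9). CHR letters (TTTGAA or TTCGAA), known from cell cycle genes of G2 and mitosis, were present in E2F3 and in 2 of the 3 TFDP2 windows, against 16.352% of all windows. A match describes letters in a window and not a bound site.

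**Figure D1:**
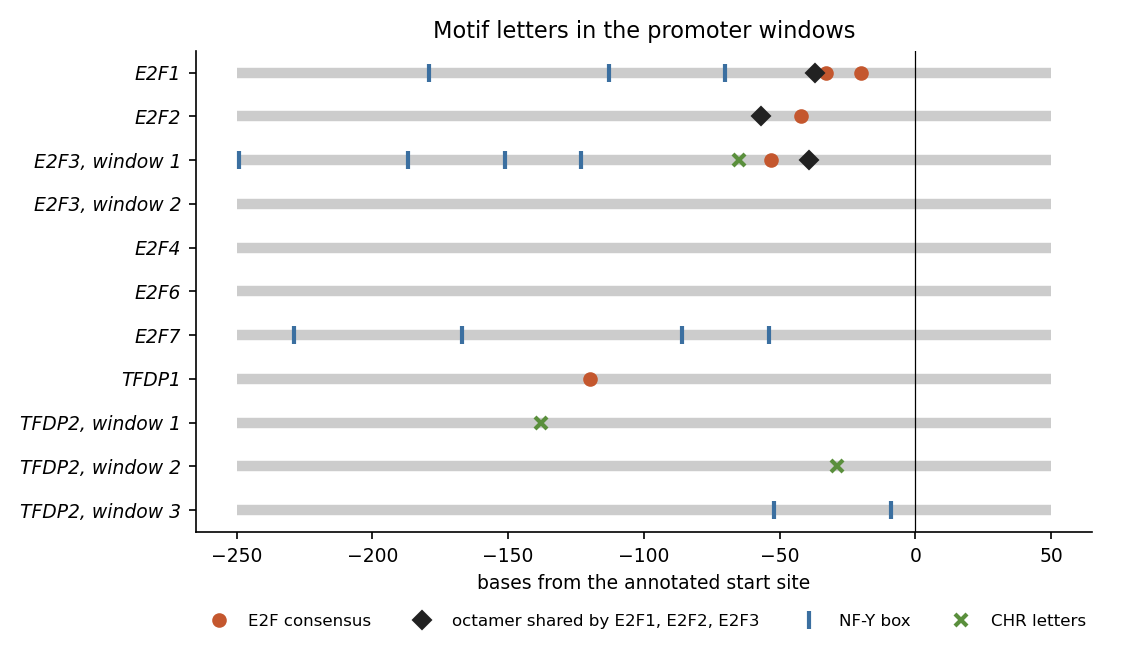
Positions of sequence matches in the RefSeq promoter windows of the members. The x axis gives the distance in bases from the transcription start, each row is a window, and symbols mark the E2F consensus, the octamer that E2F1, E2F2 and E2F3 share, the NF-Y box and the CHR letters. The activators E2F1, E2F2 and E2F3 carry both kinds of E2F-like letters within 57 bases of a start. The E2F7 window carries 4 NF-Y boxes and no E2F consensus, and NF-Y boxes also lie in windows of E2F1, E2F3 and TFDP2.

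The libraries held 25347900 to 31850997 counts, so that 3 counts, taken as the smallest detectable amount for counting error only, equaled 0.0955 to 0.119 CPM, the count scaled to library size. SAPCD2 itself was at 83.6 and 82.2 CPM in the control libraries and at 35.4 and 52.5 CPM in the knockdown libraries, a log2 fold change of -0.91 (SE 0.193, adjusted p = 0.0206). The sh-SAPCD2 libraries differed from each other by GC content: between library 2 and library 1 the median log2 ratio was -0.26 in the fifth of genes with the lowest GC content (at most 40.7%) and 0.41 in the fifth with the highest (at least 58.2%), against 0.02 and -0.01 between the control libraries. A fit corrected for GC content and length is therefore given beside each member whose call it changed. The adrenergic neuroblastoma markers (10 genes, none absent, among them MYCN) summed to 6130 and 5990 CPM in the controls and to 8170 and 10100 CPM after knockdown. Fibroblast markers summed to 354 to 432 CPM, mostly from LUM (134 to 185 CPM) and PDGFRB (174 to 232 CPM). DCN was at 21.8 to 30.9 CPM. The collagen genes were low: COL1A1 at 2.13 to 4.27, COL3A1 at 7.7 to 9.27 and COL1A2 at 0 to 0.218 CPM. Immune, endothelial, epithelial and Schwann cell markers each summed to 12.8 CPM or less in every library, with CD3E, LYZ, CDH1 and SOX10 below 3 counts throughout. The part of these differences in the results below was not tested. In bulk RNA, fewer cells that transcribe a gene and less of its RNA per cell cannot be told apart.

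After SAPCD2 knockdown, members of the family changed in both directions. The activators E2F1 and E2F2 and both atypical members, E2F7 and E2F8, fell, E2F5 and E2F6 rose, and E2F3, E2F4, TFDP1 and TFDP2 did not pass the test. Thus 4 of 10 members were called lower and 2 higher at an adjusted p under 0.05 (edgeR quasi-likelihood test, Benjamini-Hochberg adjustment over all tested genes). Over all tested genes, 12.5% were called lower and 12.4% higher. With an absolute log2 fold change over 1 required as well, E2F7 and E2F8 remained lower and no member remained higher, against 5.15% and 4.69% of all tested genes. The libraries of both groups did not overlap for 7 members that were lower and 2 that were higher after knockdown, against 33.4% and 33.5% of tested genes, and TFDP2 was the 1 member whose groups overlapped. The median log2 fold change was -0.34 over the members and 0.02 over all tested genes. With correction for GC content and length, 7 members were called lower, as E2F3, E2F4 and TFDP1 then passed as well, and 2 higher. In that fit 19.7% of all tested genes were called lower and 20.5% higher.

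**Figure D2:**
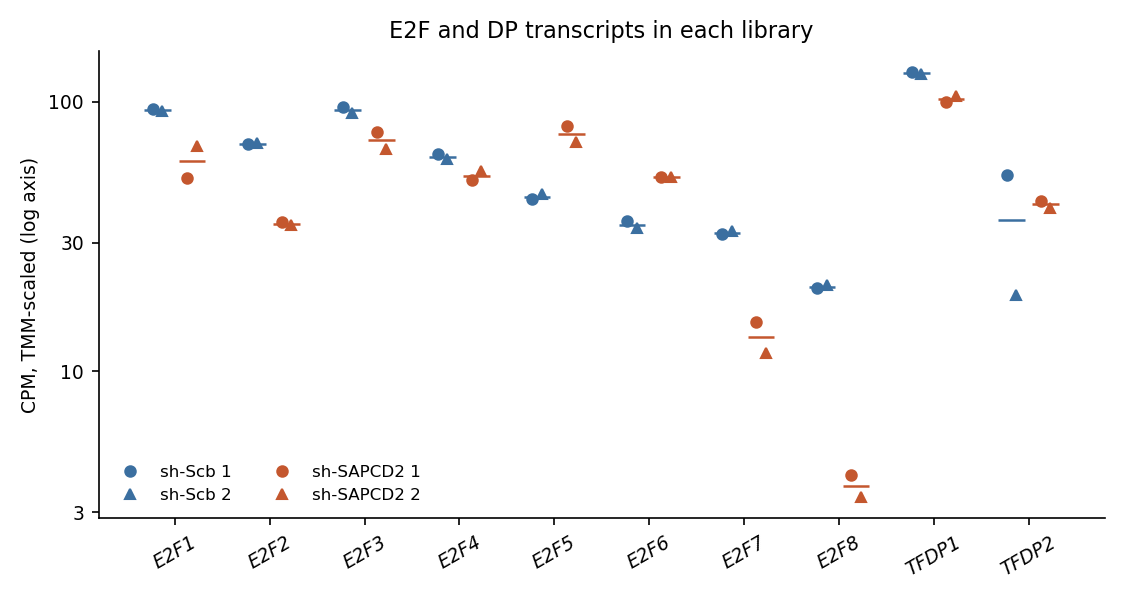
TMM-scaled CPM of each member on a log axis, with circles and triangles for libraries 1 and 2 of each group (sh-Scb blue, sh-SAPCD2 orange) and a line at the mean of each group. E2F8 drops from 20.3 and 20.8 CPM in the control libraries to 4.11 and 3.41 CPM after knockdown, E2F5 and E2F6 sit higher after knockdown, and the control libraries of TFDP2 are far apart at 53.7 and 19.1 CPM.

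Among the activators, E2F1 (ENSG00000101412; hg38 chr20:33675477-33686385, minus strand, 7 exons) drives S-phase genes and can also induce apoptosis genes. It was counted at 94.3 and 92.2 CPM in the control libraries and at 52.1 and 68.4 CPM after knockdown. Both knockdown libraries lay below both controls, at 55.9% and 73.3% of the control mean, and their own gap was wider than that of the controls. The group means were 93.3 ± 1.51 and 60.3 ± 11.5 CPM (SD, n = 2 each), and E2F1 fell by 0.63 on the log2 scale (SE 0.151, adjusted p = 0.0297, edgeR). The E2F1 transcript has 61.6% GC, in the range in which sh-SAPCD2 library 2 read higher than library 1. After correction for GC content and length its log2 fold change was -0.86 (adjusted p = 0.000103). The call was lost without sh-Scb library 1 (adjusted p = 0.148), without sh-Scb library 2 (adjusted p = 0.117) and with no filter on low counts (adjusted p = 0.0908), each with the same direction.

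E2F2 (ENSG00000007968; chr1:23506438-23531233, minus strand), an activator with a role close to that of E2F1, was the most even of the 3. Its values were 69.5 and 70.5 CPM in the controls and 35.8 and 34.8 CPM after knockdown, so the knockdown libraries stood at 51.1% and 49.7% of the control mean. E2F2 fell by 0.99 on the log2 scale (SE 0.11, adjusted p = 0.00401), which is just inside a log2 fold change of 1. It was called in all 12 alternative fits, with values from -1.11 to -0.97.

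E2F3 (ENSG00000112242; chr6:20401879-20493714, plus strand) gives rise to an activator product and to a shorter product from an internal promoter, and the gene count joins both. It was at 95.4 and 90.8 CPM in the controls and at 77.1 and 66.6 CPM after knockdown. The groups did not overlap, but the difference did not pass the test (log2 fold change -0.37, SE 0.118, adjusted p = 0.0657). With GC content and length corrected it was -0.32 (adjusted p = 0.00835). Without sh-SAPCD2 library 1 or library 2 it was -0.49 or -0.27. The 3 activators, whose promoter windows share the TTTCGCGG letters, thus ranged from -0.99 to -0.37.

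Of the repressors that bind DNA with a DP partner, E2F5 and E2F6 were called higher and E2F4 was not called. E2F4 (ENSG00000205250; chr16:67192155-67198918, plus strand), the main repressor partner of RBL1 and RBL2 in resting cells, was at 64.0 and 61.2 CPM in the controls and 51.1 and 55.2 CPM after knockdown. Its log2 fold change of -0.24 (SE 0.113, adjusted p = 0.176) did not pass the test. It passed with GC content and length corrected (-0.37, adjusted p = 0.0109). Without sh-SAPCD2 library 1 or library 2 the log2 fold change was -0.19 or -0.29.

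E2F5 (ENSG00000133740; chr8:85177154-85217158, plus strand), a pocket protein-dependent repressor, showed the highest log2 fold change of the family. It was at 43.5 and 45.5 CPM in the control libraries and at 81.3 and 71.1 CPM in the knockdown libraries. Both knockdown values were far above both controls, at 183% and 160% of the control mean. E2F5 rose by 0.78 on the log2 scale (SE 0.121, adjusted p = 0.00879), from 44.5 ± 1.35 to 76.2 ± 7.24 CPM (SD, n = 2 each). Its exons overlap those of RBIS, a gene for a ribosome biogenesis factor on the opposite strand, and the sources used here do not say whether counting used strand, so reads of the overlap cannot be told apart. RBIS was at 27.7 and 29.2 CPM in the controls and at 22.1 and 20.3 CPM after knockdown (log2 fold change -0.43, SE 0.133, adjusted p = 0.0628). The E2F5 call was lost without sh-Scb library 1 (adjusted p = 0.0855) or library 2 (adjusted p = 0.0569).

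E2F6 (ENSG00000169016; chr2:11444375-11466177, minus strand), the repressor of the Polycomb complex PRC1.6, was the second member that rose. Its values of 36.1 and 33.9 CPM in the controls became 52.5 and 52.8 CPM after knockdown, 150% and 151% of the control mean. The knockdown libraries were nearly identical, and E2F6 rose by 0.59 on the log2 scale (SE 0.116, adjusted p = 0.0171). This call too was lost without sh-Scb library 1 (adjusted p = 0.178) or library 2 (adjusted p = 0.269). E2F6 has 4 annotated processed pseudogenes, to which reads can be misassigned, with 88, 108, 118 and 80 counts in all in the 4 libraries against 934 to 1658 counts of E2F6.

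The atypical members showed the largest decreases of the family. E2F7 (ENSG00000165891; chr12:77021248-77065569, minus strand, 13 exons) represses E2F1 and other E2F targets and is the member whose location in the cell the study followed, which RNA counts do not measure. It was at 32.2 and 33.0 CPM in the controls and at 15.2 and 11.7 CPM after knockdown, so that the knockdown libraries held 46.7% and 35.9% of the control mean. E2F7 fell by 1.28 on the log2 scale (SE 0.169, adjusted p = 0.00581), a 2.43-fold decrease that was called in all 12 alternative fits (-1.48 to -1.10).

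E2F8 (ENSG00000129173; chr11:19224063-19241620, minus strand), which acts together with E2F7 on the same promoters, fell most of the 10 members. Its counts were 560 and 573 in the controls and 104 and 107 after knockdown, or 20.3, 20.8, 4.11 and 3.41 CPM. The knockdown libraries held 20.0% and 16.6% of the control mean, and each remained well above the 3-count floor. The log2 fold change was -2.45 (SE 0.176, adjusted p = 0.00201), a 5.48-fold decrease, with -2.60 to -2.32 over the 12 alternatives, all of which called it. CSRP3-AS1, which overlaps an exon on the opposite strand, had 5 counts or fewer in each library.

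Neither DP gene passed the test. TFDP1 (ENSG00000198176; chr13:113584721-113641473, plus strand), the main dimerization partner, was at 129 and 127 CPM in the controls and 99.4 and 105 CPM after knockdown, without overlap (log2 fold change -0.32, SE 0.0987, adjusted p = 0.0615). This p lay close to the threshold: TFDP1 was called with genes of at least 1 CPM only (-0.33, adjusted p = 0.0497) and with GC content and length corrected (-0.25, adjusted p = 0.0212). Without sh-SAPCD2 library 1 or library 2 its log2 fold change was -0.28 or -0.36. TFDP3, a DP-related gene on the X chromosome, had no count in any library.

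TFDP2 (ENSG00000114126; chr3:141944428-142149544, minus strand, 24 annotated transcripts), the second DP partner, rested on its control libraries. It had 1484 and 525 counts there, or 53.7 and 19.1 CPM, and 42.8 and 40.3 CPM after knockdown. The knockdown libraries agreed closely and fell between the controls. The 2.82-fold gap between the controls was matched by only 1 other gene, ENSG00000259522, among the 5848 genes with as many control counts, for which the median absolute log2 gap was 0.05. The log2 fold change was 0.19 (SE 0.43, adjusted p = 0.777). Without sh-Scb library 1 it was 1.12 (adjusted p = 0.00871), and without sh-Scb library 2 it was -0.37 (adjusted p = 0.484), so the direction of TFDP2 depended on a single library.

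**Figure D3:**
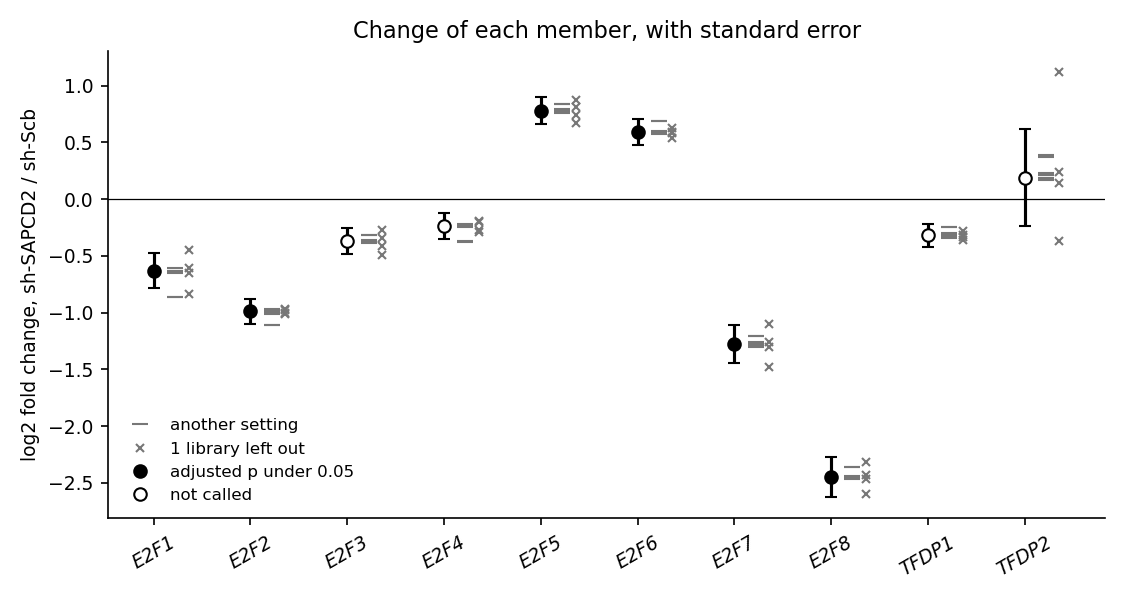
Log2 fold change (sh-SAPCD2 minus sh-Scb) of each member with its standard error from the edgeR fit, filled where called, beside grey dashes for other settings and crosses for fits without 1 library. The atypical members E2F8 (-2.45) and E2F7 (-1.28) lie lowest, E2F6 (0.59) and E2F5 (0.78) highest, and the range of TFDP2 crosses 0, from -0.37 to 1.12.

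Levels were compared between members per length, as CPM per kilobase of exon union (FPKM). In the controls E2F1 (34.7 ± 0.561) and TFDP1 (34.2 ± 0.22) were highest and differed by less than their spread (SD, n = 2 each). E2F3 (17.9 ± 0.622) and E2F4 (17.4 ± 0.558) followed and likewise did not differ beyond their spread. E2F2 was next at 12.8 ± 0.125, then E2F6 at 8.61 ± 0.373 and E2F5 at 7.42 ± 0.226. E2F7 (5.18 ± 0.0878) and E2F8 (4.97 ± 0.0945) stood near the lower end, and TFDP2 (3.06 ± 2.06) could not be ranked against them because of its control gap.

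After knockdown the members stood in another order. TFDP1 led at 27.4 ± 1.14 FPKM, above E2F1 at 22.4 ± 4.26. Their libraries did not overlap (26.6 and 28.2 FPKM for TFDP1, 19.4 and 25.4 FPKM for E2F1). E2F4 (14.8 ± 0.813), E2F3 (13.8 ± 1.42), E2F6 (12.9 ± 0.0578) and E2F5 (12.7 ± 1.21) came next. E2F2 stood at 6.46 ± 0.123, below E2F5 and E2F6. TFDP2 (3.49 ± 0.149) was followed by E2F7 (2.14 ± 0.396), and E2F8 was lowest at 0.909 ± 0.12. The order in both groups depended on the length used. With the longest transcript TFDP1 already led in the controls, at 28.0% of the summed level against 20.1% for E2F1. With the canonical transcript it also did, at 25.1% against 17.9%. With the canonical transcript E2F5 held 11.7% of the summed level in the controls, above E2F2 at 6.98%, and after knockdown E2F5 held 22.8%, E2F4 14.8%, E2F6 9.58% and E2F3 8.39%.

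Summed by role, the activators made up 66.2 and 64.7 FPKM in the control libraries and 40.8 and 44.6 FPKM after knockdown. The canonical repressors E2F4, E2F5 and E2F6 together summed to 33.9 and 32.9 against 40.7 and 40.2 FPKM, and the atypical members went from 10 and 10.3 to 3.41 and 2.68 FPKM. The groups did not overlap in any of these sums. As shares of the summed level of all 10 genes, the activators went from a mean of 44.7% to 36.5%, the canonical repressors from 22.9% to 34.6%, the atypical members from 6.94% to 2.61%, and the DP partners from 25.4% to 26.4%. No test was made of these sums, because 2 against 2 libraries cannot give an exact two-sided permutation p below 0.333.

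Ratios within a library do not depend on library size. The ratio of activators to canonical repressors was 1.95 and 1.96 in the controls and 1.00 and 1.11 after knockdown. The ratio of activators to atypical members was higher after knockdown in both libraries, going from 6.61 and 6.29 to 12.0 and 16.6, that is from 2.72 and 2.65 to 3.58 and 4.06 on the log2 scale. The ratio of E2F1 to E2F7, its known repressor, was 6.86 and 6.54 in the controls and 8.02 and 13.7 after knockdown. The transcripts of E2F1 and E2F7 differ in GC content (61.6% and 43.1%). The log2 difference of their ratio between the groups was 0.65 in the fit as reported and 0.35 with GC content and length corrected. The ratios of summed classes were not corrected in this way. Corrected log2 fold changes were -0.86, -1.11 and -0.32 for E2F1, E2F2 and E2F3, against -0.63, -0.99 and -0.37 without correction. They were -1.21 and -2.36 for E2F7 and E2F8, against -1.28 and -2.45. The ratio of DP partners to the 6 E2Fs that need them was 0.388 and 0.365 against 0.370 and 0.372, so that the groups overlapped. They did not overlap with the longest transcript as the length (0.488 and 0.464 against 0.454 and 0.460) or with the canonical transcript (0.413 and 0.390 against 0.340 and 0.355), both lower after knockdown. Lengths of the canonical transcript, a choice added after seeing the data, put the activator to canonical repressor ratio at 1.06 and 1.05 in the controls and 0.508 and 0.576 after knockdown. The levels of both ratios to other E2F classes thus depended on the length used. With all 3 lengths, and without correction for GC content, the ratio of activators to canonical repressors was lower after knockdown. That of activators to atypical members was higher.

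**Figure D4:**
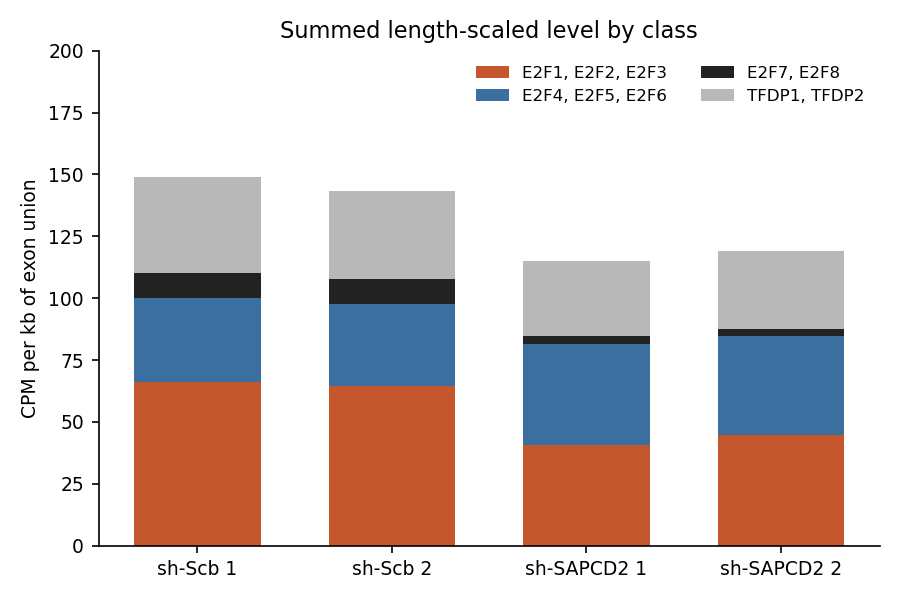
Stacked bars of the summed level of the activators, canonical repressors, atypical members and DP partners in each library, in CPM per kilobase of exon union (FPKM). The activators lie at 66.2 and 64.7 against 40.8 and 44.6 FPKM, the canonical repressors lie at 33.9 and 32.9 against 40.7 and 40.2 FPKM, and the atypical members at 10 and 10.3 against 3.41 and 2.68 FPKM.

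The regulators that act on E2F proteins were examined as lists, beside the 12.5% of all tested genes called lower and 12.4% called higher. Of the 3 pocket proteins, RBL1 and RBL2 fell. RBL1, itself a known E2F target, went from 43.8 and 46.9 to 25.8 and 18.6 CPM (log2 fold change -1.03, SE 0.183, adjusted p = 0.0125), and RBL2 fell by 0.48 (adjusted p = 0.0311). RB1 was at 52.6 and 55.1 CPM against 45.4 and 32 CPM (log2 fold change -0.48, adjusted p = 0.107) and did not pass the test. The RBL2 call was lost without either control library. RB1 was called lower with GC content and length corrected, with a replicate block, with both together and without sh-SAPCD2 library 1.

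Of the G1 cyclins, CDKs and CDK inhibitors, which set the phosphorylation of the pocket proteins, 13 of 15 were tested. Of these, 4 were called lower and 3 higher, against 12.5% and 12.4% of all tested genes, and the median log2 fold change was 0.36. CDK2, the partner of cyclin E, fell by 1.47 (adjusted p = 0.0021), and CDK6, a partner of D-type cyclins, fell by 0.86 (adjusted p = 0.0121). CCND1, which encodes cyclin D1, the partner of CDK4 and CDK6, rose from 440 and 429 to 734 and 784 CPM (log2 fold change 0.80, adjusted p = 0.0043). CDKN1A, which encodes the inhibitor p21, fell from 6.48 and 6.07 to 1.5 and 2.87 CPM (log2 fold change -1.51, adjusted p = 0.0227). The inhibitor genes CDKN1B (log2 fold change 0.45, adjusted p = 0.0251) and CDKN1C (1.1, adjusted p = 0.0475) were called higher. They are named here after their values were seen. Positive and inhibiting regulators of G1 were thus found in both directions.

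The protein complexes through which repressor E2Fs act were read against the 12.5% of tested genes called lower and 12.4% called higher. Of 5 genes of the MuvB core, which joins E2F4 and the pocket proteins in the DREAM complex, RBBP4 was called lower (-0.44, adjusted p = 0.0358) and none higher. LIN9 (-0.66, adjusted p = 0.0533), LIN37 (0.70, adjusted p = 0.0997) and LIN54 (-0.38, adjusted p = 0.2) did not pass. Of 10 subunits of PRC1.6, the complex of E2F6, L3MBTL2 (-0.67, adjusted p = 0.0345) and PCGF6 (-0.79, adjusted p = 0.0462) were called lower and none higher. RNF2 (0.47, adjusted p = 0.072) and MAX (0.32, adjusted p = 0.114) did not pass the test. These calls depended on the fit: with GC content and length corrected, 2 subunits were called lower (L3MBTL2 and RYBP) and 3 higher (MGA, MAX and RNF2), without sh-SAPCD2 library 1 there were 5 lower and 2 higher, and without sh-SAPCD2 library 2 there were 3 lower and 2 higher. Without sh-Scb library 1 no gene of either complex was called, and without sh-Scb library 2 PCGF6 alone was.

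The G1/S genes known as E2F targets held the most called genes of the lists. Of 40 genes, all tested, 37 were called lower and none higher, against 12.5% and 12.4% of all tested genes. The median log2 fold change of the list was -1.06, and 24 passed a log2 fold change of -1 as well, against 5.15%. BRCA1, a DNA repair gene, fell by 1.92 (adjusted p = 0.00201), from 79.0 and 87.1 to 23.5 and 20.4 CPM. PRIM1, the primase subunit that starts DNA strands, fell by 1.83 (adjusted p = 0.00207), and DUT, which removes dUTP, fell by 1.76 (adjusted p = 0.00203). PCNA, the sliding clamp of DNA polymerases, fell by 1.14 (adjusted p = 0.00243). The 3 genes not called were UNG (-0.29), SLBP (-0.14) and TIPIN (-0.49), named here after their values were seen. Without 1 control library 28 or 29 of the 40 were called lower, and 38 with GC content and length corrected. In the promoter windows, 21 of the 35 list genes with a window (60.0%) held the E2F consensus, against 3.992% of 27305 genes, and 3 held TTTCGCGG (8.6%, against 0.509%). The list was made of known E2F targets and chosen with earlier results of these data known. Its shares of called genes and of promoter matches are therefore a description and not a test.

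Apoptosis genes known as targets of E2F1 went in both directions. Of 8, 4 were called higher and 1 lower, against 12.4% and 12.5% of all tested genes. BBC3, which encodes PUMA, rose from 2.43 and 3.09 to 7.70 and 10.5 CPM (log2 fold change 1.72, adjusted p = 0.00735), and BCL2L11, which encodes BIM, rose by 0.60 (adjusted p = 0.0185). TP73, a p53 relative, fell from 11.4 and 8.90 to 3.59 and 3.73 CPM (log2 fold change -1.47, adjusted p = 0.00683). Without either control library, BBC3 was the 1 gene called higher and TP73 the 1 called lower.

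Germline genes known to be silenced by E2F6 and PRC1.6 were mostly absent. Of 9 genes, 4 had enough counts for testing, and none was called by edgeR or by DESeq2. At an unadjusted p under 0.05 there was 1, SMC1B, a meiotic cohesin gene (1.41 and 1.09 against 0.553 and 0.414 CPM, log2 fold change -1.37, adjusted p = 0.0552), and it had the smallest p of the list. It was called with GC content and length corrected. TAF7L (0.94), TDRKH (-0.12) and STAG3 (0.08) did not pass either.

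Genes for the turnover and nuclear transport of E2F proteins completed the lists. Of 8, 4 were called lower and none higher, against 12.5% and 12.4% of all tested genes. CCNF, the cyclin F gene whose product marks E2F proteins for degradation, fell by 0.94 (adjusted p = 0.00438), from 70.4 and 68.7 CPM to 36.2 CPM in both knockdown libraries. SKP2, a substrate receptor that has been tied to E2F1 turnover, fell by 0.55 (adjusted p = 0.0129) and CDC20, an activator of the anaphase-promoting complex, by 0.77 (adjusted p = 0.0182). XPO1, the main exporter of nuclear proteins, was at 430 and 443 CPM in the controls and 322 and 236 CPM after knockdown (log2 fold change -0.65, adjusted p = 0.0303). The importin gene KPNA2 was at 272 and 273 against 229 and 222 CPM and did not pass the test (log2 fold change -0.27, adjusted p = 0.0779). With GC content and length corrected, 5 genes were called lower, KPNA2 among them, and SKP1 and CUL1 were called higher. The shares of all tested genes were then 19.7% lower and 20.5% higher. Without either control library CCNF was the 1 gene called, and the calls of SKP2, CDC20 and XPO1 were lost.

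**Figure D5:**
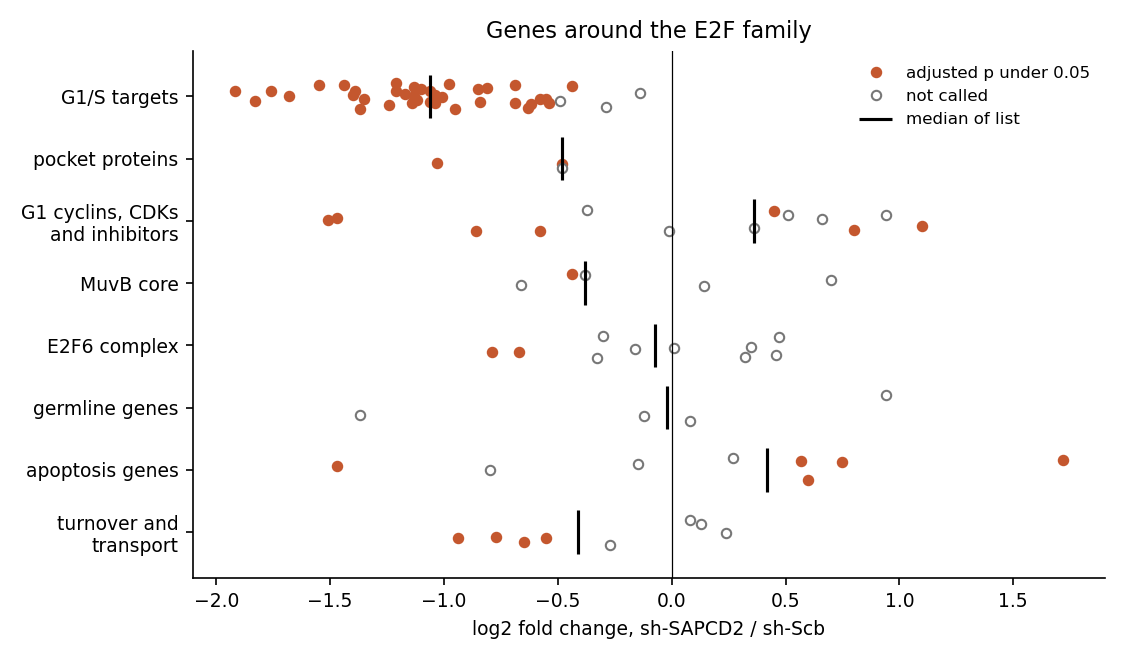
Log2 fold change (sh-SAPCD2 minus sh-Scb) of each tested gene of the lists around the E2F family, with 1 row per list, filled points for genes called at an adjusted p under 0.05 and a mark at the median. The G1/S genes centre on -1.06, with 37 of 40 called lower, whereas the G1 regulators and apoptosis genes lie on both sides of 0.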

How the data were processed

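The authors sequenced 150 bp paired-end reads and aligned them to hg38 with HISAT2 2.2.0 before abundance estimation with StringTie. They deposited unnormalized whole-number counts per Ensembl gene. The counting step, its strandedness and the Ensembl release are not given in the sources used here. Of 64252 genes, 29317 had no count, and 56105 were annotated in GENCODE 44.

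Libraries were grouped by the shRNA in the labels. Counts were scaled by TMM (factors 0.9872 to 1.009) and tested in R 4.3.3 with the two-sided quasi-likelihood test of edgeR 4.0.16, after filterByExpr (minimum count 10, minimum total count 15), over 18779 genes. The fit was tested on simulated data. The biological coefficient of variation was 15.4%. DESeq2 1.42.0 (the tool of the study), loess trends (span 0.3) of GC content and transcript length, fitted per library and entered as edgeR offsets, other scalings and filters, a replicate block and fits without 1 library were alternatives. Replicate libraries correlated at 0.986 (sh-Scb) and 0.98 (sh-SAPCD2) and differed by more than sampling noise (chi-square per degree of freedom 4.19 and 34.3). Same-numbered libraries did not deviate together (r = -0.0188), so the numbers were not taken as pairs.

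FPKM was CPM divided by the kilobases of exon union. The genes named were the 10 members, SAPCD2, overlapping or related genes, up to 4 genes of each list with the smallest p, the pocket, transport and turnover genes, and for the members with the lowest and highest log2 fold change the 3 genes of at least 1 CPM with the nearest pattern. Members and lists were chosen with earlier results of these data known. Some genes that this rule names are not reported here.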

Additional observations from a re-analysis of the deposited data

How the results depend on the processing

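Directions held for 9 of the 10 members in all 12 alternative fits. The log2 fold change of TFDP2 turned to -0.37 without sh-Scb replicate 2. E2F1 lost its call with no filter on low counts (-0.63). With the GC content and length correction, E2F3 (-0.32), E2F4 (-0.37) and TFDP1 (-0.25) gained a call, and with it joined to the replicate block likewise (-0.32, -0.38 and -0.25). TFDP1 gained one with genes of a mean of at least 1 CPM (-0.33). Members called lower then numbered 7 with the correction and 7 with block and correction, and with the fold threshold 2 were lower and 0 higher. The replicate block alone changed no call of a member (E2F1 -0.64, E2F8 -2.46).

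Over all genes, 1180 were called lower and 1081 higher with no filter, 3697 and 3849 with the correction, 3633 and 3840 with block and correction, and 968 and 880 with the fold threshold. Genes called in either direction changed as follows. With no filter they were 1 pocket protein, 3 G1 regulators, 0 of the MuvB core, 0 of PRC1.6, 2 apoptosis and 2 turnover genes, and with the fold threshold 1, 3, 0, 0, 2 and 0, with 24 G1/S genes. For the MuvB core, 2 were called with library totals, 2 with the 1 CPM minimum, 2 with DESeq2, 3 with the replicate block, 2 with the correction and 2 with block and correction. For PRC1.6, 5 were called with the correction (2 lower, 3 higher) and 6 with block and correction (3 lower, 3 higher). Of turnover genes 7 were called with the correction (5 lower, 2 higher). Of germline genes 1 was called with the block and 1 with the correction.

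Without 1 library in turn, the lowest and highest log2 fold changes were -0.84 and -0.45 for E2F1, -0.49 and -0.27 for E2F3, -0.29 and -0.19 for E2F4, 0.67 and 0.87 for E2F5, 0.54 and 0.63 for E2F6, -0.36 and -0.28 for TFDP1 and -0.37 and 1.12 for TFDP2, with the lone library assumed to vary like the other group. Members called lower were then 3 to 7 and higher 0 to 2, all genes 1146 to 4014 lower and 1176 to 4396 higher. Called were 1 to 3 pocket proteins, 5 to 12 G1 regulators, 0 to 3 of MuvB, 0 to 7 of PRC1.6, 28 to 40 G1/S genes, 0 to 0 germline genes, 2 to 6 apoptosis and 1 to 7 turnover genes. For all genes and for members called lower, the lowest counts came without a control library.

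Shares of the summed level moved with the length used. With the longest transcript they were, in sh-Scb and sh-SAPCD2, 20.1% and 15.9% for E2F1, 7.80% and 4.83% for E2F2, 10.7% and 10.2% for E2F3, 13.8% and 14.5% for E2F4, and 28.0% and 27.6% for TFDP1, with 3.29% for E2F7 and 3.21% for E2F8 in sh-Scb. With the canonical transcript, added after seeing the data, they were 17.9% and 13.2%, 6.98% and 3.99%, 9.57% and 8.39%, 15.4% and 14.8%, 11.7% and 22.8% for E2F5, 5.61% and 9.58% for E2F6, 2.95% and 1.38% for E2F7, 2.87% and 0.596% for E2F8, 25.1% and 22.8% for TFDP1, and 2.47% for TFDP2 in sh-SAPCD2. Without 1 library they ranged from 16.9% to 21.3% for E2F1 in sh-SAPCD2, 8.55% to 8.99% and 5.35% to 5.69% for E2F2, 10.8% to 12.9% for E2F3, 12.4% to 12.9% for E2F4, 4.87% to 5.28% and 9.95% to 11.8% for E2F5, 10.9% to 11.2% for E2F6, 1.56% to 2.1% for E2F7, 0.692% to 0.864% for E2F8, 23.0% to 23.7% for TFDP1 and 1.12% to 3.03% for TFDP2 in sh-Scb. The cause of these differences was not tested, apart from the length and the libraries changed by construction.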

Other observations

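The genes whose pattern over the 4 libraries was most like that of the members at either end were looked up among 15682 genes with a mean of at least 1 CPM, by the Euclidean distance of centred log2 CPM. For E2F8 they were PRR22 (distance 0.14, log2 fold change -2.71), MDC1, an adaptor of the DNA damage response (0.16, -2.52), and ANAPC15, a subunit of the anaphase-promoting complex (0.16, -2.52). MDC1 went from a mean of 16.6 to 2.90 CPM and ANAPC15 from 33.9 to 5.92 CPM, against 20.5 to 3.76 CPM for E2F8. For E2F5 the nearest genes were COPB2, a coat protein of Golgi vesicles (0.01, 0.77), RFK, the riboflavin kinase (0.02, 0.77), and ZNF785, a zinc finger gene (0.03, 0.78). With 4 libraries in 2 groups, this measure mostly ranks genes by their difference between the groups.

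The study's hairpins against SAPCD2 target its coding sequence, #1 at chr9:137064663-137064683 in exon 6 and #2 at chr9:137065607-137065627 in exon 3 (hg38, minus strand). Their guide arms are shown because a short RNA can also act on other transcripts through its seed (bases 2 to 8, in capitals):
sh-SAPCD2 #1 guide: aTGAAGGTggaatccagaggt
sh-SAPCD2 #2 guide: aTCATCTCcaaaccctgcagc
Sites for the seed of #1 (ACCTTCA) lay in the canonical 3′ UTRs of E2F1 and E2F7, and in 11.312% of 19201 3′ UTRs. Sites for the seed of #2 (GAGATGA) lay in those of E2F2, E2F7 and TFDP2, and in 13.208% of all. E2F3, E2F4, E2F5, E2F6, E2F8 and TFDP1 had neither. For the passenger arms, sites for #1 (CCAGAGG) lay in E2F2 and TFDP2 (15.864% of all 3′ UTRs) and sites for #2 (CCTGCAG) in E2F1, E2F2, E2F4, E2F6 and TFDP2 (18.379%). Sites for seeds offset from these in hairpin #1, chosen in earlier work after values were seen and held by 30.795% of 3′ UTRs, numbered 2 in E2F6, 1 each in E2F2, E2F3, E2F4 and E2F7, and 0 in the other members. A seed match describes letters, and whether these hairpins act on a member was not tested.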
